A study of Mus musculus with 8 samples.

Results

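The subject is 9 genes for costimulatory and checkpoint receptors of T cells, Ctla4, Icos, Cd28, Btla, Pdcd1, Lag3, Cd27, Tnfrsf4 and Tnfrsf9 on 8 Affymetrix mouse arrays. They were taken by gene symbol in the platform annotation. All 9 were present, through 14 probe sets that each name 1 gene, among 18193 genes tested. The arrays came from DN3 cells, early T cell precursors, sorted by the absence of lineage markers and CD44 and the presence of CD25. The culture began with lineage-negative thymocytes on OP9 DL1, stromal cells that offer a Delta-like ligand to Notch. There were 4 groups of 2 arrays: wild-type (WT) and IkL/L cells, each given DMSO, the vehicle, or GSI, the gamma-secretase inhibitor MRK-003 (5 mM as labelled), for 16 h. IkL/L mice carry an altered allele of Ikzf1, the gene of the transcription factor Ikaros, and gamma-secretase frees the active intracellular part of a Notch receptor. All groups shared the stroma and its Notch ligand, and the labels give no ages of animals and do not state whether the replicates are separate animals or separate cultures. The p-values therefore reflect only how far these samples vary, and that variation may be technical.

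A T cell reads its antigen receptor together with a second set of surface receptors that raise or lower the response. CD28 and CTLA-4 are paired opponents: both bind the B7 ligands CD80 and CD86, CD28 to promote activation and CTLA-4 to restrain it. ICOS is a further costimulatory member of the same family, with its own ligand. PD-1 (Pdcd1), BTLA and LAG-3 are inhibitory receptors of the immunoglobulin superfamily. CD27, OX40 (Tnfrsf4) and CD137 (Tnfrsf9) belong to the TNF receptor family and signal through TRAF adapters. Most of these receptors are best known on mature T cells after activation. In the thymus, CD27 and CD28 are used as surface markers of DN3 cells that have passed beta-selection, the checkpoint at which a rearranged beta chain is tested.

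Values are log2 levels from RMA, an array summary method, so a difference of 1 is a doubling. Array medians lay between 5.25 and 5.33 and lower quartiles between 3.78 and 3.86. No detection calls were used, and levels of different probe sets cannot be set against each other. Ikzf1 itself was at 11.95 and 12.17 for WT DMSO, 12.18 and 11.95 for WT GSI, 11.14 and 11.19 for IkL/L DMSO and 11.75 and 11.52 for IkL/L GSI. By limma Ikzf1 was lower in IkL/L under DMSO (-0.9 ± 0.14, SE; adjusted p = 0.0222). Under GSI the genotype difference was -0.43 ± 0.14 (limma adjusted p = 0.298). The probe set could not be placed against the altered part of Ikzf1, so these values do not check the labels. A gene was called where its limma adjusted p (Benjamini-Hochberg over all 18193 genes) was below 0.05.

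Ctla4 and Icos rose with GSI in both genotypes and were lower in IkL/L than in WT cells under DMSO. Pdcd1 was lower with GSI by a similar amount in both genotypes, and passed the test only for the average of both. The other 6 receptors passed in no contrast. In such bulk samples, fewer cells of a type and less RNA per cell cannot be told apart. Counts by contrast were 2 of 9 higher for GSI in WT, where 6.47% of all genes were called in either direction and 2.31% as higher. For GSI in IkL/L they were 2 of 9 higher, beside 16.8% of all genes called and 7.7% called higher. For the average of both genotypes they were 2 higher and 1 lower, beside 23.3% called, 10.8% higher and 12.5% lower. Under DMSO, 2 of 9 were lower in IkL/L than in WT, beside 1.74% of all genes called and 1.03% called lower. No receptor was called between the genotypes under GSI (1.46% of all genes) or in the difference between the genotypes' responses to GSI, the interaction (0.044%). Before adjustment limma counted 1 receptor below 0.05 in each of these, Icos under GSI and Ctla4 in the interaction, beside 1946 and 1089 of all genes. The median log2 difference over the 9 receptors was 0.33 for the average response to GSI, against 0 over all genes. With 9 genes, these shares rest on 2 or 3 of them.

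**Figure D1:**
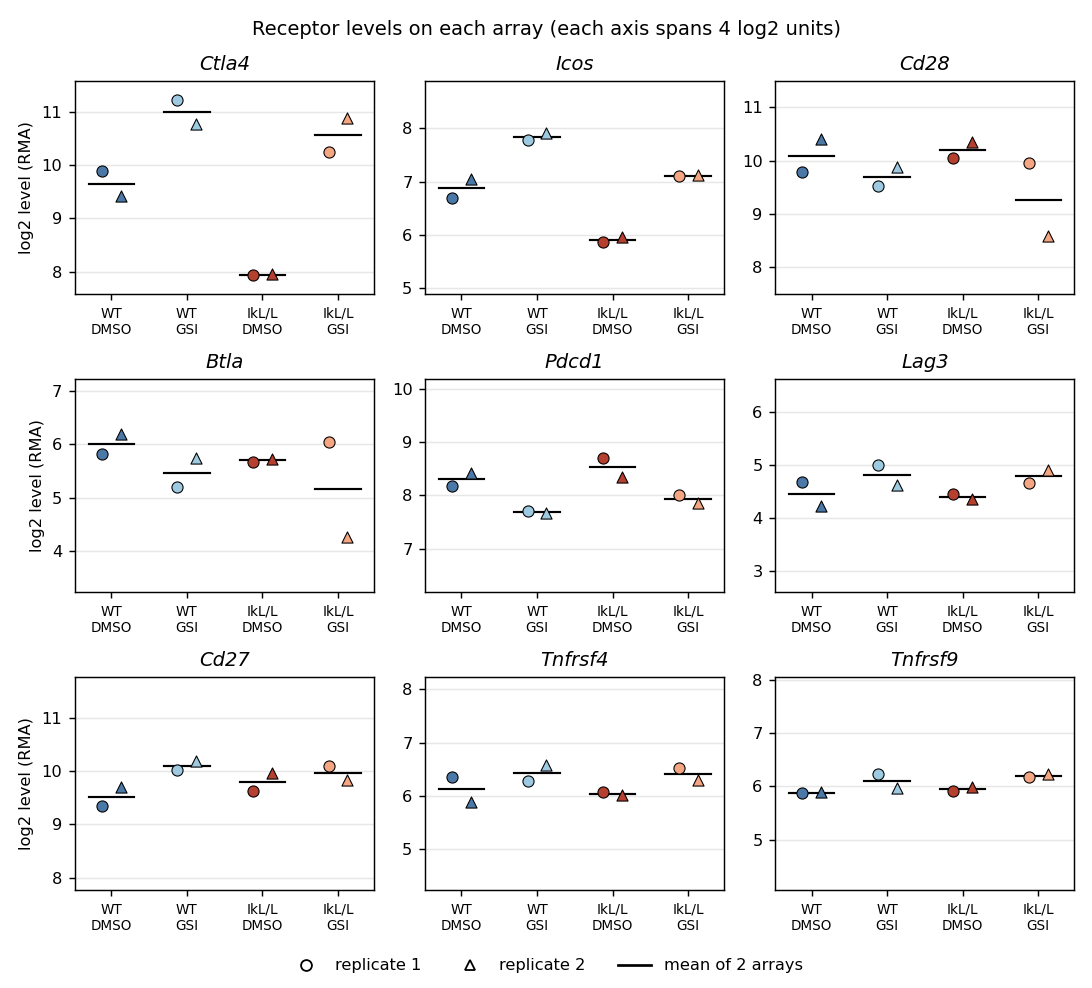
Log2 level (RMA) of each of the 9 receptor genes on each of the 8 arrays, by group; circles are replicate 1, triangles replicate 2 and bars the mean of 2 arrays, and every vertical axis spans 4 log2 units. Ctla4 and Icos sit lowest on the IkL/L DMSO arrays and rise with GSI in both genotypes, while 1 IkL/L GSI array lies apart for Cd28 and Btla.

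Ctla4 encodes the inhibitory receptor that competes with CD28 for B7 ligands, and it had the widest range of the 9 receptors, 3.29 log2 units. Its log2 level was 9.89 and 9.41 for WT DMSO, 11.22 and 10.76 for WT GSI, 7.93 and 7.95 for IkL/L DMSO and 10.24 and 10.88 for IkL/L GSI. The IkL/L DMSO arrays were the lowest, the WT DMSO arrays came next, and the 4 GSI arrays were above all DMSO arrays and overlapped between the genotypes. Group means were 9.65 ± 0.34 (SD, n = 2), 10.99 ± 0.33, 7.94 ± 0.01 and 10.56 ± 0.45 in the same order. With GSI Ctla4 rose 2.54-fold in WT (log2 difference 1.34 ± 0.27, SE; limma adjusted p = 0.0286). In IkL/L it rose 6.16-fold (2.62 ± 0.27, adjusted p = 0.00112), and on average 3.95-fold (1.98 ± 0.19, adjusted p = 0.000426).

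Under DMSO Ctla4 was 3.27-fold lower in IkL/L than in WT (-1.71 ± 0.27; limma adjusted p = 0.0212). Under GSI the genotypes differed by -0.43 ± 0.27, with a 95% interval from -1.05 to 0.20 (adjusted p = 0.667). The response was larger in IkL/L by 1.28 ± 0.38 (95% interval 0.40 to 2.16), which did not pass over all genes (limma adjusted p = 0.667). The IkL/L DMSO arrays enter the genotype contrast, the IkL/L response and the interaction alike, so these are not separate pieces of evidence. The WT call was lost without either WT DMSO array (adjusted p = 0.0811 and 0.132), without WT GSI replicate 1 (0.071), without either IkL/L DMSO array (0.0653 and 0.0656), and with only the 4 WT arrays fitted (0.111). Without single arrays its size stayed between 1.10 and 1.58. Each of the 4 DMSO arrays, left out alone, ended the genotype call (adjusted p up to 0.168, differences from -1.95 to -1.47).

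Icos encodes the inducible costimulator. The probe set used for the gene, 1436598_at, read 6.70 and 7.05 for WT DMSO, 7.78 and 7.91 for WT GSI, 5.86 and 5.96 for IkL/L DMSO and 7.10 and 7.13 for IkL/L GSI. The 4 groups did not overlap: IkL/L DMSO was lowest, WT DMSO next, then IkL/L GSI, then WT GSI. Group means were 6.87 ± 0.25 (SD, n = 2), 7.84 ± 0.09, 5.91 ± 0.07 and 7.11 ± 0.02 in the order in which the arrays are given. Icos rose with GSI 1.96-fold in WT (0.97 ± 0.18; limma adjusted p = 0.0231). It rose 2.31-fold in IkL/L (1.21 ± 0.18, adjusted p = 0.00391) and 2.13-fold on average (1.09 ± 0.13, adjusted p = 0.000853).

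Under DMSO Icos was 1.95-fold lower in IkL/L (-0.96 ± 0.18; limma adjusted p = 0.0436). Under GSI the difference was -0.73 ± 0.18 (95% interval -1.15 to -0.31; adjusted p = 0.138). The responses to GSI differed between genotypes by 0.23 ± 0.26 (interval -0.36 to 0.83; adjusted p = 0.938). The WT call for Icos was lost without WT DMSO replicate 1 (adjusted p = 0.127), WT DMSO replicate 2 (0.0545), WT GSI replicate 2 (0.0665) or either IkL/L DMSO array (0.0623 and 0.0621), and with only the 4 WT arrays fitted (0.154). Each of the 4 DMSO arrays and of the IkL/L GSI arrays, left out alone, ended the genotype call (limma adjusted p between 0.0826 and 0.371).

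The other Icos probe sets gave smaller differences. Probe set 1421930_at read 6.19 and 6.48 for WT DMSO, 6.77 and 6.87 for WT GSI, 5.63 and 5.91 for IkL/L DMSO and 6.71 and 6.49 for IkL/L GSI. Tested as its own feature it was higher with GSI in IkL/L (0.83 ± 0.20; limma adjusted p = 0.0314) and on average (0.66 ± 0.14, adjusted p = 0.0148). It did not pass for GSI in WT (adjusted p = 0.246) or between the genotypes under DMSO (0.409). In that fit 1436598_at did not pass between the genotypes under DMSO either (limma adjusted p = 0.0945). The dimmest, 1421931_at, ranged from 4.10 to 5.13 and passed in no contrast. With a mean over the 3 probe sets, Icos no longer passed for GSI in WT (0.60, adjusted p = 0.0625) or between the genotypes under DMSO (-0.64, adjusted p = 0.0973).

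**Figure D2:**
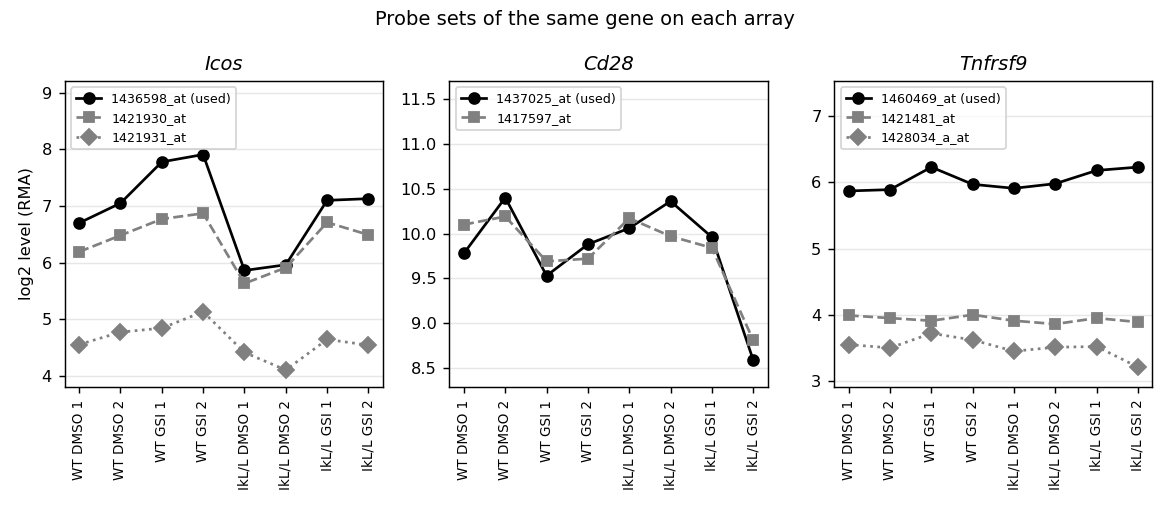
Log2 level (RMA) on each of the 8 arrays for every probe set of the 3 receptors with several; black marks the probe set used in the gene-level test, and lines join arrays only to guide the eye. The 3 Icos probe sets are lowest on IkL/L DMSO arrays, both Cd28 probe sets drop for IkL/L GSI replicate 2, and the Tnfrsf9 probe sets are nearly flat.

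Pdcd1 encodes PD-1, an inhibitory receptor, and moved the opposite way from Ctla4 and Icos. Its log2 level was 8.17 and 8.43 for WT DMSO, 7.71 and 7.67 for WT GSI, 8.70 and 8.35 for IkL/L DMSO and 8.00 and 7.86 for IkL/L GSI. The 4 GSI arrays were all below the 4 DMSO arrays. Averaged over genotypes Pdcd1 fell with GSI 1.52-fold (-0.61 ± 0.14; limma adjusted p = 0.0163). The single-genotype differences were -0.61 ± 0.20 in WT (adjusted p = 0.122) and -0.60 ± 0.20 in IkL/L (adjusted p = 0.0794), neither past the threshold. In IkL/L it passed without a trend in eBayes (adjusted p = 0.0445) or among genes above the median level (0.0458). The responses differed by 0.01 ± 0.28 (95% interval -0.64 to 0.66). The average call was lost without WT DMSO replicate 2 (limma adjusted p = 0.0542), IkL/L DMSO replicate 1 (0.0858) or IkL/L GSI replicate 2 (0.0684). The genotypes differed by 0.22 ± 0.20 under DMSO (interval -0.24 to 0.69) and 0.24 ± 0.20 under GSI (interval -0.22 to 0.70).

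Cd28, the main costimulatory receptor gene, and Btla, an inhibitory receptor gene whose ligand HVEM is encoded by Tnfrsf14, passed in no contrast. Cd28 read 9.78 and 10.40 for WT DMSO, 9.53 and 9.88 for WT GSI, 10.06 and 10.36 for IkL/L DMSO and 9.96 and 8.59 for IkL/L GSI. Its second probe set, 1417597_at, read 9.84 and 8.81 on the same IkL/L GSI arrays and between 9.69 and 10.19 elsewhere. Btla read 5.81 and 6.19, 5.20 and 5.75, 5.67 and 5.72, and 6.05 and 4.26 in the same group order. IkL/L GSI replicate 2 was thus the lowest array for both genes and for both Cd28 probe sets, and its partner lay within the range of the other groups for Cd28.

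The average response of Cd28 to GSI was -0.66 ± 0.30 (95% interval -1.34 to 0.02; limma adjusted p = 0.16) and that of Btla -0.53 ± 0.35 (interval -1.33 to 0.27; adjusted p = 0.35). Without IkL/L GSI replicate 1, both passed as lower on average (-1.0, adjusted p = 0.0192, and -0.98, adjusted p = 0.0124). Both then also passed in IkL/L (-1.62, limma adjusted p = 0.0268, and -1.44, adjusted p = 0.0245). In that fit the IkL/L GSI group is the low array alone, assumed to vary like the other groups. In WT the differences were -0.39 ± 0.42 for Cd28 (interval -1.35 to 0.57) and -0.52 ± 0.49 for Btla (interval -1.66 to 0.61). Between genotypes under DMSO they were 0.12 ± 0.42 for Cd28 and -0.30 ± 0.49 for Btla.

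Lag3 encodes an inhibitory receptor that binds MHC class II. It read 4.67 and 4.22 for WT DMSO, 5.00 and 4.62 for WT GSI, 4.45 and 4.36 for IkL/L DMSO and 4.66 and 4.91 for IkL/L GSI, below the median of every array in each case. DMSO and GSI arrays overlapped in WT and not in IkL/L. Its average difference with GSI was 0.37 ± 0.14 (95% interval 0.06 to 0.69; limma adjusted p = 0.0884). It passed without WT DMSO replicate 1 (0.49, adjusted p = 0.0432) or without WT GSI replicate 2 (0.47, adjusted p = 0.0451). The genotypes differed by -0.04 ± 0.19 under DMSO (interval -0.49 to 0.40).

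The 3 TNF receptor family members were slightly higher in level with GSI, and none passed. Cd27, a costimulatory receptor that binds CD70, read 9.34 and 9.70 in WT DMSO and 10.02 and 10.19 in WT GSI, without overlap. In IkL/L it read 9.62 and 9.96 under DMSO and 10.10 and 9.84 under GSI, with overlap. The difference was 0.58 ± 0.20 in WT (95% interval 0.11 to 1.05; limma adjusted p = 0.148), 0.18 ± 0.20 in IkL/L (interval -0.29 to 0.65) and 0.38 ± 0.14 on average (adjusted p = 0.10). Tnfrsf4, the OX40 gene, ranged from 5.89 to 6.57 over all arrays, with an average difference of 0.33 ± 0.15 (adjusted p = 0.153). Without both WT arrays numbered 1, which leaves 1 array in each WT group, the Tnfrsf4 difference was 0.53. Tnfrsf9, the CD137 gene, ranged from 5.87 to 6.23 by the probe set used, with an average difference of 0.24 ± 0.11 (adjusted p = 0.169). Its other probe sets, 1421481_at (3.86 to 4.0) and 1428034_a_at (3.21 to 3.72), passed in no contrast.

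**Figure D3:**
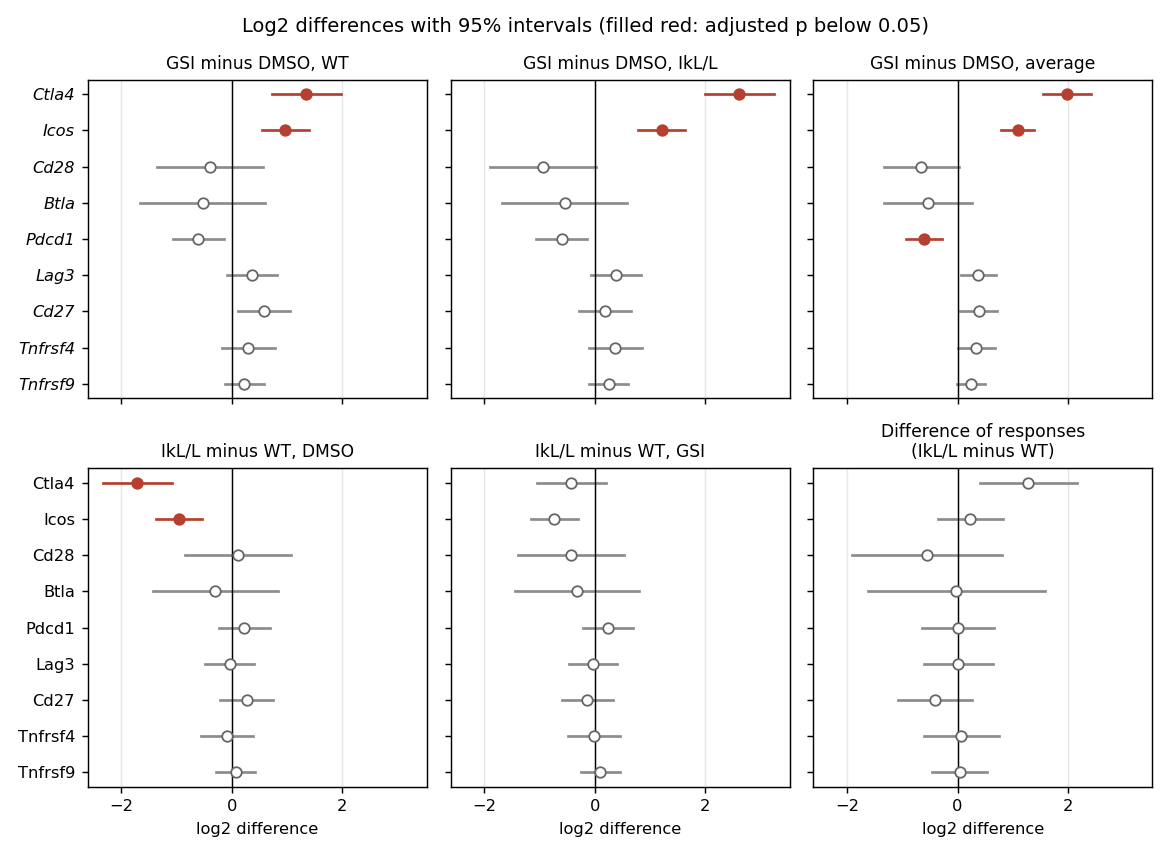
Log2 differences (horizontal axis) of the 9 receptor genes in each of 6 contrasts, with limma 95% intervals; filled red points have an adjusted p below 0.05. Ctla4 and Icos are called in 4 contrasts, Pdcd1 only in the average response to GSI, and the intervals of Cd28 and Btla are the widest.

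Cd28, Ctla4 and Icos lie next to each other on chromosome 1 in the mouse annotation, where Pdcd1 also lies. Btla is on chromosome 16, Lag3 and Cd27 on chromosome 6, and Tnfrsf4 and Tnfrsf9 on chromosome 4. In gene order the stretch reads Abi2, Raph1, Cd28, Ctla4, Icos, Pard3b and Nrp2. Within it the differences did not run one way. Abi2, an adapter of the actin cytoskeleton on the Cd28 side, was 2.88-fold higher in IkL/L under DMSO (1.53 ± 0.25; limma adjusted p = 0.0222), where Ctla4 and Icos were lower. Its log2 level was 7.96 and 8.61 for WT DMSO, 7.34 and 7.40 for WT GSI, 9.79 and 9.83 for IkL/L DMSO and 8.81 and 8.45 for IkL/L GSI. The IkL/L DMSO arrays were the highest for Abi2 and the lowest for Ctla4 and Icos.

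Averaged over genotypes Abi2 fell with GSI (-1.05 ± 0.17; limma adjusted p = 0.00358). Its genotype call was lost without WT DMSO replicate 1 or either IkL/L DMSO array (adjusted p up to 0.186). Raph1, next to Cd28, differed between genotypes under DMSO by 1.43 ± 0.33 (adjusted p = 0.0922) and had an average response to GSI of -0.48 ± 0.23 (adjusted p = 0.195). On the Icos side, Pard3b (-0.23 ± 0.09, limma adjusted p = 0.114) and Nrp2 (0.14 ± 0.18, adjusted p = 0.661) did not pass for GSI.

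**Figure D4:**
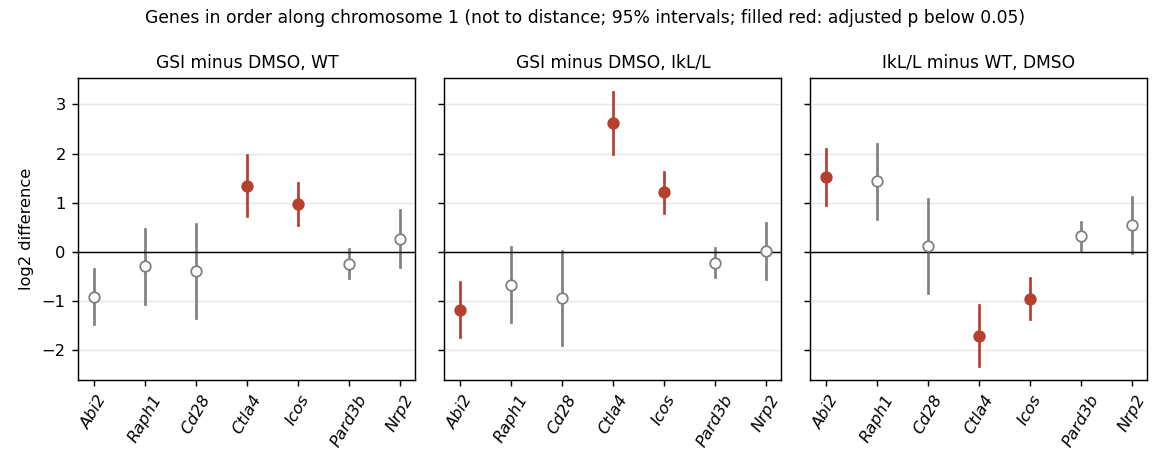
Log2 differences with limma 95% intervals for 7 genes in their order along chromosome 1, not drawn to distance, for GSI in WT, GSI in IkL/L and IkL/L against WT under DMSO; filled red points have an adjusted p below 0.05. Ctla4 and Icos are called in the same direction, Cd28 beside them does not pass, and Abi2 is called in the opposite direction in IkL/L with GSI and between genotypes.

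RefSeq promoter sequences of the mouse assembly GRCm38.p6 were matched for 6 of the 9 genes, in 7 windows (Tnfrsf9 has a pair). The 250 bases before the start site are shown for Ctla4 and Pdcd1, which went opposite ways with GSI, from chr1:60908775-60909024 (plus strand) and chr1:94052554-94052803 (minus strand), 5′ to 3′. Capitals mark the letters GGGA, the core of the site that Ikaros recognises, or TCCC, the same core on the opposite strand.
Ctla4: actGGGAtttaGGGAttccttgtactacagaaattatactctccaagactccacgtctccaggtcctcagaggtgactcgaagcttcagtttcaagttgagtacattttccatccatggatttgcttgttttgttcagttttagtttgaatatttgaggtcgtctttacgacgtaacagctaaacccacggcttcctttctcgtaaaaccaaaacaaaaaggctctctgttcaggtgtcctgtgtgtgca
Pdcd1: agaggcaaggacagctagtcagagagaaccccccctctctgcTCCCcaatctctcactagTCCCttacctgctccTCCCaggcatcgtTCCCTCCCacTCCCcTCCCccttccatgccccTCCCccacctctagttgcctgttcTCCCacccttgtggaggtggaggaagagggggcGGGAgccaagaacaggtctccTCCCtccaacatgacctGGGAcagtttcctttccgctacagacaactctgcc
GGGA occurs 2 times in the Ctla4 window and 12 times in the Pdcd1 window, on either strand. It is found in 92.6% of all 32851 promoter windows of this length. TGGGAA, a core of the Notch partner RBPJ that contains GGGA, is in neither window and in 21.6% of all. GGAAA, the core bound by NFAT factors, occurs 1 time in the Ctla4 window and 2 times in that of Pdcd1, and is in 55.6% of all. TATAAA is in neither and in 12.4% of all. Such letter matches describe the sequence and do not show that a factor binds there.

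Across the 8 arrays, the genes whose levels ran closest to Ctla4 by Pearson r, among 4112 genes above the median level with a range of at least 1 log2 unit, were Ctsw (r = 0.994), Ypel5 (0.992) and Fam117a (0.990). Ctsw, the cathepsin W gene, had group means of 7.68 for WT DMSO, 8.78 for WT GSI, 6.35 for IkL/L DMSO and 8.23 for IkL/L GSI. The closest to Icos were Kidins220 (0.991), Cd1d2 (0.990) and Cacna2d4 (0.989). The closest to Pdcd1 were Fzd5 (0.975), Gsdme (0.975) and Mad2l1 (0.972), the last a spindle checkpoint gene. For Btla the closest was Cd28 itself (0.921), then Zfp326 (0.874) and Rnft1 (0.869), and for Cd28 Zfp326 (0.954), P2ry10b (0.937) and Dpysl2 (0.928). All these arrays share their 4 groups, and the Cd28 and Btla values share the low array, so the coefficients are descriptions of these arrays.

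The list of ligands leaves out MHC class II, which LAG-3 binds, and is given first. By limma 0 of its 12 genes passed in any contrast (before adjustment 2 in the average response, Cd274 and Icosl). They were Cd80, Cd86, Icosl, Cd274, Pdcd1lg2, Tnfrsf14, Cd70, Tnfsf4, Tnfsf9, Fgl1, Lgals3 and Clec4g. The median of their average differences with GSI was 0.04, and 23.3% of all genes were called in that contrast. The largest were those of Lgals3, encoding galectin-3 (1.41 ± 0.66, limma adjusted p = 0.181), and Cd274, encoding PD-L1 (0.44 ± 0.14, adjusted p = 0.0644). Lgals3 was higher on the array numbered 1 of each group, at 7.25 and 5.53 in WT DMSO and 8.78 and 6.82 in WT GSI. With the replicate number as a block, an alternative added after the data were seen, Lgals3 passed as higher on average (1.41 ± 0.13, limma adjusted p = 8.65e-05) and in each genotype. Cd274 then also passed on average (adjusted p = 0.0424), so 2 of 12 ligands were called. The 23.3% of all genes belongs to the fit without the block and cannot be set beside this count. In that fit Lgals3 was also lower in IkL/L under DMSO (-0.89 ± 0.18, limma adjusted p = 0.0334) and under GSI (-0.88 ± 0.18, adjusted p = 0.0369). Leaving out single arrays gave 0 to 2 called ligands for the average response.

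MHC class II genes, also counted among the myeloid and dendritic markers, were named after their values were seen. H2-Aa read 5.78 and 4.81 for WT DMSO, 6.0 and 5.81 for WT GSI, 6.50 and 6.33 for IkL/L DMSO and 10.19 and 10.04 for IkL/L GSI. The IkL/L GSI arrays stood far above all others. H2-Aa rose with GSI in IkL/L by 3.69 ± 0.30 (limma adjusted p = 0.000635) and H2-Eb1 by 2.23 ± 0.23 (adjusted p = 0.00114), calls that held without any 1 array. H2-Ab1 rose by 1.21 ± 0.24 (adjusted p = 0.011), a call that ended when any single IkL/L array was left out. In WT the differences were 0.61 ± 0.30 for H2-Aa, 0.21 ± 0.23 for H2-Eb1 and 0.11 ± 0.24 for H2-Ab1, and none passed. The interaction passed for none of these genes (H2-Aa 3.09 ± 0.42, limma adjusted p = 0.0959). Between genotypes under GSI, where 1.46% of all genes were called, all were higher in IkL/L. The differences were 4.21 for H2-Aa (limma adjusted p = 0.000498), 2.64 for H2-Ab1 (0.00163) and 2.17 for H2-Eb1 (0.00373). These genotype calls held without any 1 array. Under DMSO only H2-Ab1 was called higher (1.54, limma adjusted p = 0.0195), kept in 2 of 8 such fits.

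In the average response 10.8% of all genes were called higher and 12.5% lower. Of 25 other receptors and coreceptors of T cells, 7 rose and 5 fell in it, with a median of 0.10. Without single arrays these counts were 5 to 8 and 2 to 6, with 2 lower where replicate 1 of either DMSO group was left out, and 3 lower without WT GSI replicate 2, IkL/L DMSO replicate 2 or IkL/L GSI replicate 2. Cd2 and Cd6, adhesion and costimulatory receptors, fell by 2.50 ± 0.40 (5.67-fold; limma adjusted p = 0.00293) and 1.62 ± 0.20 (adjusted p = 0.00107). Cd200, the gene of an inhibitory ligand, rose by 1.45 ± 0.16 (adjusted p = 0.000601) and Cd96, an immunoglobulin family receptor, by 1.25 ± 0.18 (adjusted p = 0.00189). These 4 calls held without any 1 array. Cd96 read 9.49 and 9.01 for WT DMSO, 10.69 and 10.16 for WT GSI, 7.89 and 7.79 for IkL/L DMSO and 9.0 and 9.36 for IkL/L GSI. As for Ctla4 and Icos, its IkL/L DMSO arrays were the lowest. Between genotypes under DMSO, where 1.74% of all genes were called, it was the only one of the 25 called (-1.41 ± 0.25, limma adjusted p = 0.035). That call was lost without 6 of the 8 arrays in turn (all but the WT GSI arrays). With the replicate number as a block, Cd2 and Cd5 also passed there, as higher.

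In single genotypes, 5 of these 25 receptors rose and 1 fell with GSI in WT, and 5 rose and 5 fell in IkL/L. Over all genes 6.47% were called in WT (2.31% higher) and 16.8% in IkL/L (7.7% higher). Beside Cd200, Cd6 and Cd96, Vsir, the VISTA checkpoint gene, was called in WT (0.99 ± 0.23), and Cd5, a negative regulator of antigen receptor signals, was called in IkL/L (-1.58 ± 0.38). Of 8 fits without an array, the WT calls of Vsir and Cd96 were kept in 1, that of Cd6 in 3 and that of Cd200 in 7. The IkL/L call of Cd5 was kept in 5, lost without either IkL/L DMSO array or IkL/L GSI replicate 2. The WT counts moved between 0 and 4 higher and 0 and 2 lower when arrays were left out. Those for IkL/L moved between 1 and 5 higher and 1 and 5 lower, with 1 and 1 without IkL/L DMSO replicate 1 or IkL/L GSI replicate 2 and 2 and 2 without IkL/L DMSO replicate 2. Between genotypes under GSI, 1 receptor of the 25 was lower (4 with the replicate number as a block), beside 1.46% of all genes called.

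Beside 10.8% of all genes called higher and 12.5% lower, the adapters and kinases that these receptors use were counted. Of 35 such genes, 9 rose and 6 fell in the average response, with a median of 0.26. Without single arrays 5 to 13 rose and 4 to 7 fell, the fewest increases without IkL/L DMSO replicate 1 and the most without WT GSI replicate 2. Traf1, a TNF receptor adapter, rose by 1.75 ± 0.40 (limma adjusted p = 0.0147), and Birc3, a ubiquitin ligase of the same complexes, by 1.17 ± 0.19 (adjusted p = 0.00341). Pik3r1, the regulatory subunit of PI3 kinase, rose by 1.11 ± 0.14 (adjusted p = 0.00111). Sh2d1a, the SAP adapter of SLAM receptors, fell by 1.63 ± 0.23 (adjusted p = 0.00167). The Traf1 call was lost without IkL/L DMSO replicate 1 or IkL/L GSI replicate 2 (adjusted p up to 0.0658). Counts were 9 higher and 5 lower in IkL/L, and 0 higher (6 before adjustment by limma) and 1 lower in WT, the lower one Siva1 (-0.64), which encodes a partner of CD27 and is named after its value was seen. In either direction 16.8% of all genes were called in IkL/L and 6.47% in WT. Siva1 was kept in WT in 1 of 8 fits without an array. The IkL/L counts fell to 3 higher and 2 lower without IkL/L DMSO replicate 1 or IkL/L GSI replicate 2, and the increases to 4 without either of the other IkL/L arrays.

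Sh2d1a read 10.35 and 10.44 for WT DMSO, 9.79 and 9.37 for WT GSI, 9.85 and 10.08 for IkL/L DMSO and 8.03 and 7.01 for IkL/L GSI. The IkL/L GSI arrays were the lowest, without overlap. Under GSI the IkL/L level was below the WT level (-2.05 ± 0.32, limma adjusted p = 0.0207), a call lost without WT GSI replicate 1, IkL/L GSI replicate 2 or either IkL/L DMSO array. Its interaction, -1.63 ± 0.45, did not pass.

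For regulators the all-gene shares were again 10.8% higher and 12.5% lower. Of 34 regulators of these genes and pathways, 11 rose and 2 fell in the average response, with a median of 0.29. Without single arrays 6 to 14 rose and 0 to 3 fell, with 6 and 0 without IkL/L DMSO replicate 1 or IkL/L GSI replicate 2 and 7 and 0 without IkL/L DMSO replicate 2. Among those called, the largest increases were those of Relb, an NF-kappaB subunit (1.57 ± 0.34, limma adjusted p = 0.0117), the repressor gene Bach2 (1.38 ± 0.31, adjusted p = 0.0135), Tnfaip3, the A20 feedback inhibitor (1.29 ± 0.34, adjusted p = 0.0289), and Foxo3 (0.98 ± 0.15, adjusted p = 0.00255). Relb and Bach2 were lost without IkL/L DMSO replicate 1 or IkL/L GSI replicate 2 (adjusted p up to 0.0519 and 0.0639). Tnfaip3 was lost without WT DMSO replicate 2 or any 1 of the 4 IkL/L arrays (up to 0.108). Nfatc1, a factor of the calcium response, rose in IkL/L (1.08 ± 0.21, limma adjusted p = 0.0108), lost without either IkL/L DMSO array or IkL/L GSI replicate 2. With GSI 6.47% of all genes were called in WT and 16.8% in IkL/L. The regulators counted 2 higher in WT, Nfkbia (0.79 ± 0.13) and Foxo3 (0.90 ± 0.21), and 8 higher and 1 lower in IkL/L. The IkL/L counts became 2 and 0 without IkL/L DMSO replicate 2 or IkL/L GSI replicate 2, and 3 and 0 without IkL/L DMSO replicate 1. The WT Foxo3 call was kept in 1 of 8 fits without an array, and that of Nfkbia was lost without either WT DMSO array.

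Between genotypes under GSI, Tox2, a relative of the factor TOX, was lower in IkL/L (-1.40 ± 0.20, limma adjusted p = 0.0137), lost without WT GSI replicate 2 or IkL/L GSI replicate 2. Runx1 was higher (0.92 ± 0.16, adjusted p = 0.0295), lost without any 1 array. By limma no regulator was called between genotypes under DMSO (2 higher and 3 lower before adjustment), beside 1.74% of all genes. With the replicate number as a block, 3 passed there as lower, Irf8, Maf and Nfatc2.

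Of 17 genes of activated T cells, 0 rose and 1 fell in the average response by limma (1 and 1 before adjustment), with a median of 0.05. Over all genes 10.8% were called higher and 12.5% lower. The 1 that fell was the cytokine gene Il10 (-0.22, limma adjusted p = 0.0427), named after its value was seen and lost without any 1 array. The largest differences, those of Cd69 (0.70 ± 0.72, adjusted p = 0.576) and Ccl4 (0.60 ± 0.29, adjusted p = 0.189), did not pass. Cd69, an early activation antigen, read 9.27 and 7.35 in WT DMSO and 10.83 and 7.34 in WT GSI, so its WT replicates lay further apart than the treatments. Leaving out arrays in turn gave 0 to 2 higher and 0 lower for the average response.

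**Figure D5:**
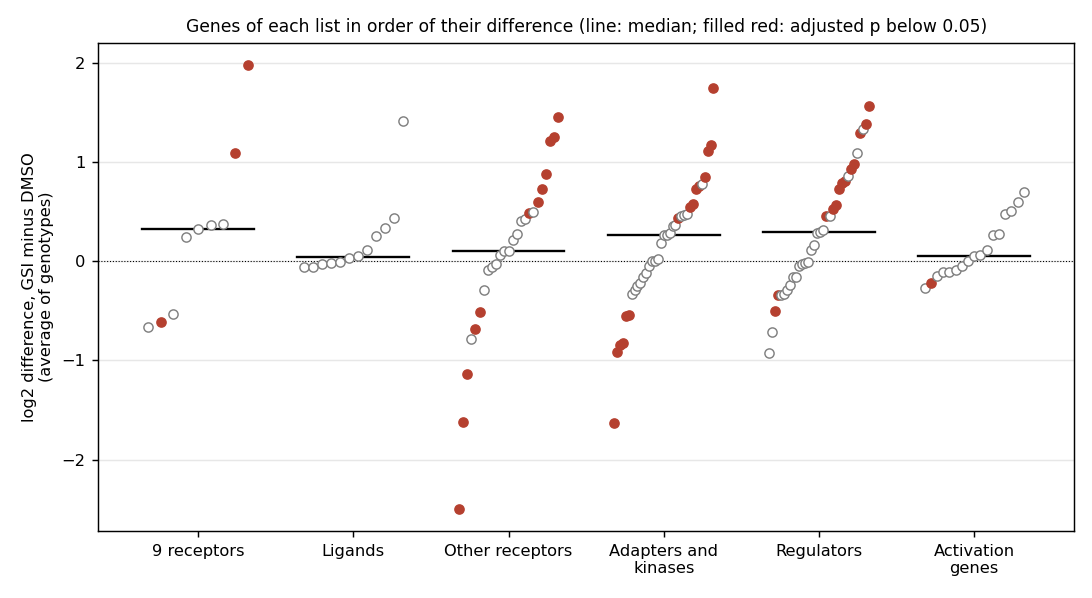
Average log2 difference with GSI (vertical axis) of each gene of the 9 receptors and of 5 lists of related genes, in order of size within each list; black lines are list medians and filled red points have an adjusted p below 0.05. No gene of the ligand list, which leaves out MHC class II, passes, while the other receptors, adapters and regulators hold called genes in both directions.

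Of 12 DN3 markers 1 rose and 4 fell with GSI on average, with a median difference of -0.01, and 3 rose and 3 fell in IkL/L. Over all genes 10.8% were called higher and 12.5% lower on average, and in IkL/L 16.8% were called and 7.7% called higher. The mean DN3 marker level was 11.2 to 11.5 on DMSO arrays and 10.6 on GSI arrays. The 4 that fell on average were Dtx1, Hes1, Ptcra and Il2ra. As 7 others did not pass, the lower mean does not describe the whole list. Il2ra, encoding the CD25 of the sort, fell by 2.27 ± 0.11 on average (limma adjusted p = 7.16e-05). Foxp3, which defines regulatory T cells that express Ctla4 and Icos, read 3.29 to 3.68 on all arrays, below each array's lower quartile, and Ncr1, of natural killer cells, read 3.34 to 3.61. Other genes of these marker lists had high values, such as Ikzf2 at 11.25 to 12.83 and Nkg7 at up to 9.13. Of 8 regulatory T cell markers 3 rose and 1 fell on average, with summed levels of 58.6 in WT DMSO, 59.4 in WT GSI, 57.7 to 57.8 in IkL/L DMSO and 59.0 to 59.3 in IkL/L GSI. Among them Itgae was lower in IkL/L under DMSO (-2.84 ± 0.19, adjusted p = 0.000547). Of 10 natural killer markers 2 rose on average, with summed levels of 46.9 to 49.2, 47.5 to 51.4, 45.0 to 46.6 and 47.0 to 48.3 in the same group order. Nkg7, a granule gene, was lowest on the IkL/L DMSO arrays, as Ctla4 was, at 8.51 and 8.03, 9.13 and 8.70, 6.57 and 6.24, and 7.6 and 8.36.

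Markers of other cells were counted in the same way, where 10.8% of all genes were called higher and 12.5% lower on average. Lists of 6 to 20 genes give only rough shares to set beside these. Of 20 myeloid and dendritic markers 8 rose on average, with summed levels of 98.4 to 103.6 in WT DMSO, 105.3 to 110.3 in WT GSI, 105.9 to 106.4 in IkL/L DMSO and 124.5 to 125.3 in IkL/L GSI. Of 9 B cell markers 2 rose, with summed levels of 47.1 to 48.0, 50.1 to 51.9, 46.8 to 47.3 and 51.5 to 52.8. Of 9 later thymocyte markers 2 rose, with summed levels of 67.6, 66.7 to 70.9, 67.5 to 67.8 and 68.5 to 74.7. Cd4 among them read 7.88 and 7.36 in IkL/L GSI and 5.91 to 6.57 elsewhere. Cd8a read 8.43 and 6.31 in IkL/L GSI and 6.02 to 6.55 elsewhere, and Cd8b1 7.62 and 5.91 against 5.81 to 6.49. For both Cd8 genes IkL/L GSI replicate 1 was thus the highest array, whereas for Cd28 and Btla replicate 2 of that group was the lowest. Of 6 gamma-delta T cell markers 1 rose and 1 fell, of 6 erythroid markers 1 fell, and of 19 stromal markers 0 passed by limma (1 before adjustment). The part of these cells in the receptor values was not tested.

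Stromal marker level and RNA quality differed between arrays, RNA quality also with treatment, and were therefore tried as covariates. The mean stromal level was higher on the array numbered 1 of every group, for example 7.53 and 6.23 in WT GSI. The GAPDH 3′ minus 5′ difference, which grows with RNA degradation, was 1.71 and 2.12 for WT DMSO, 2.20 and 3.08 for WT GSI, 1.87 and 2.47 for IkL/L DMSO and 3.09 and 3.03 for IkL/L GSI. Within each genotype both GSI arrays lay above both DMSO arrays. A fit with the GAPDH covariate therefore cannot cleanly separate RNA quality from treatment. With either covariate Ctla4 and Icos kept their calls for GSI in WT, in IkL/L and on average. With the GAPDH covariate Pdcd1 no longer passed on average (-0.52, limma adjusted p = 0.132) and Lag3 passed as higher on average (0.74, adjusted p = 0.0177), in WT (0.69, adjusted p = 0.048) and in IkL/L (0.78, adjusted p = 0.0351). With the stromal covariate Pdcd1 also passed in each genotype (-0.64 in WT, adjusted p = 0.0457, and -0.62 in IkL/L, adjusted p = 0.0329). Cd27 then passed in WT (0.63, limma adjusted p = 0.0367) and on average (0.43, adjusted p = 0.0262).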

How the data were processed

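Sorted DN3 cells gave total RNA, which was labelled with biotin and hybridised to Affymetrix mouse arrays, per the labels' protocols. The deposited values are log2 levels that the authors made with RMA, per the submitters' processing notes, in which no version is given. They were used as deposited. Groups came from the sample titles.

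Left out of 45101 probe sets were 64 controls, 932 with several gene names and 9160 without one in the platform annotation. Each gene was tested through its brightest probe set by mean level, dim ones included. A linear model with 4 group terms was fitted to all 8 arrays in limma 3.58.1 (R 4.3.3), and eBayes followed the mean-variance trend, with 4 residual degrees of freedom and 4.11 from the prior. It gave 6 contrasts: the GSI response of WT, that of IkL/L, their average and their difference (the interaction), and the genotype difference under each treatment. Tests were two-sided. Intervals are moderated 95% intervals. Precision is limited by the 2 arrays of a group.

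The 9 receptors and the gene lists were chosen with earlier results of these data known. Of 244 listed genes 222 were measured, and the others were not analysed here. All 9 receptors are described. From each of the 5 pathway lists up to 4 called genes by size of difference were named in a contrast; with fewer than 2 called, the 2 with the largest differences were named as not passing. The lists cover ligands, other receptors, adapters and kinases, regulators and activation genes. The 9 marker lists are given by counts and levels. Genes outside this rule are named after their values were seen, neighbours by gene order. For receptors ranging over at least 1 log2 unit, the 3 genes with the highest Pearson r were named.

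Same-numbered arrays deviated together in WT DMSO, WT GSI and IkL/L DMSO (correlations of deviations across genes of 0.71, 0.58 and 0.56) but not with IkL/L GSI (-0.11 to 0.02), so the numbers were not taken to pair samples. Alternatives were a mean over probe sets, every probe set as a feature, genes above the median level only, array medians set equal, a second quantile normalization, only the arrays compared, no trend in eBayes, the replicate block, each array left out, both WT arrays numbered 1 left out, and 2 covariates. The tests were checked on simulated data. Promoter letters came from RefSeq sequences of GRCm38.p6. Tables were prepared with pandas 2.3.3 in Python 3.11.15 and plots with matplotlib 3.10.9.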

Additional observations from a re-analysis of the deposited data

How the results depend on the processing

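The Ctla4 and Icos calls for GSI in IkL/L and on average were kept under every alternative tried (19 and 18), from 2.31 to 3.05 and 0.79 to 1.25 in IkL/L and from 1.82 to 2.37 and 0.69 to 1.18 on average. Over all 984 recomputed receptor values, 934 kept their side of the threshold, 32 lost a call, 18 gained one and 0 called values reversed. Of the 934, 49 turned sign where neither fit made a call.

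The number of receptors called for GSI in WT, 2, became 1 with a mean over probe sets, 0 with only the arrays compared, 0 without both WT arrays numbered 1, and 4 with the stromal covariate; without single arrays it lay between 0 and 2. For GSI in IkL/L it lay between 2 and 4 without single arrays, and for the average, 3, between 2 and 5. Between genotypes under DMSO, 2, it became 1 with a mean over probe sets, with every probe set as a feature and with only the arrays compared, and lay between 0 and 2 without single arrays. Under GSI, 0, it became 1 (Icos) with the stromal covariate (-0.70, limma adjusted p = 0.0469) and 1 with the GAPDH covariate (-0.83, adjusted p = 0.0308). The replicate block gave 2, 2, 3, 0, 2 and 0 receptors in the 6 contrasts and changed no receptor call. Among the related genes it called 2 ligands on average, and in WT 2 adapters higher and 2 lower and 5 regulators higher. On average 13 adapters rose and 5 regulators fell. Between genotypes under DMSO it called 2 other receptors higher and 1 lower, and 1 ligand, 1 adapter and 3 regulators lower. Under GSI it called 1 ligand, 4 other receptors and 1 adapter lower, and 3 regulators higher and 2 lower. Of the activation genes it called Gzma higher, on average and in IkL/L, and Il10 no longer passed. All shares of all genes given here belong to the fit without the block. Whether the block counts go beyond a general change in calls was therefore not tested. The cause of these changes was not tested. Fits that leave arrays out lose both those values and precision, and the 2 cannot be told apart. Only genes above the median level keeps 5 of the receptors. For the average and the interaction, only the arrays compared is the same fit as all arrays. Groups of 2 arrays limit all values, and a group left with 1 array was assumed to vary like the others.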
